A study of Mus musculus with 36 samples.

Results

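The MSR-dCas9-Control line is a culture of mouse embryonic fibroblasts (MEFs) in which a catalytically dead Cas9 (dCas9) without any effector domain can be switched on with doxycycline. The dCas9 is driven by a tetracycline-responsive promoter, and a guide RNA against the major satellite repeat (MSR) is expressed constitutively from the same PiggyBac plasmid. Cells were selected with hygromycin and kept as a mixed culture and not as 1 clone. All genes and repeat families were compared between 3 libraries of cells that had received no doxycycline (uninduced) and 3 libraries of cells given 10 ng/ml doxycycline for 24 h (induced), which are 6 of the 36 libraries of the series. The other libraries are the MSR-dCas9-Activator line, whose dCas9 carries the VPR activation domain and was induced for 6 h, and both lines at 3 h, 6 h, 12 h and 24 h after doxycycline was removed.

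The comparison asks what doxycycline and dCas9 at the satellite do to the transcriptome when no activation domain is present. Uninduced cells were taken before induction, so the induced cells had been in culture for 24 h longer. The study's methods give the induction in medium without hygromycin, and they do not give the medium of the uninduced cells at harvest. No line without dCas9 or without a guide was treated. Doxycycline, dCas9, time in culture and the medium therefore cannot be told apart in any result below. The dCas9 transgene and its guide are not features of the count table, so the RNA data hold no check of the induction itself.

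The major satellite forms large arrays of an A/T-rich repeat unit around mouse centromeres, and the minor satellite lies next to it at the centromere proper. Both are packed into heterochromatin marked by H3K9 methylation and HP1 proteins, and both are transcribed at a low level. Fibroblasts in culture make collagens, crosslinking enzymes and contractile actin isoforms, whose transcription depends in part on serum response factor (SRF), TGF-beta signalling and tension. Cholesterol synthesis genes are controlled together by SREBP2, amino acid and tRNA synthetase genes by ATF4, and the circadian clock runs as a feedback loop in which BMAL1 (Arntl) and CLOCK drive the Per, Cry and Nr1d genes.

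RNA was sequenced as ribosome-depleted total RNA, and the deposited values are counts per gene and per repeat family. The 6 libraries held between 35092024 and 71148411 counts each on genes and repeat families. A normalised count is a count divided by the library's effective size (TMM normalisation on genes) and brought to the mean size of the 6 libraries. Replicates with the same number moved together: the deviations of their log2 levels from the group means correlated at r = 0.72, 0.43 and 0.76 for replicates 1, 2 and 3 over 15147 genes, and the first principal component, 49.7% of the variance of the 6 libraries, ordered them by replicate number. The second component, 26.3%, separated uninduced from induced libraries. The fit therefore compared induced with uninduced cells within replicate numbers, and its spread came from all 18 libraries of the line (edgeR's quasi-likelihood test, Benjamini-Hochberg adjusted p).

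The major satellite RNA, GSAT_MM, showed no change on induction that the test could detect. It stood at 1515, 1395 and 1409.8 normalised counts in uninduced replicates 1 to 3 and at 1330.5, 1297 and 1384 in the induced replicates. The level was lower in 3 of 3 pairs and the groups did not overlap, but the shift was small, from 1439.9 ± 65.2 (SD, n = 3) to 1337 ± 43.8. The log2 fold change was -0.11 ± 0.10 (SE), with a 95% interval of -0.30 to 0.08 and an adjusted p of 1.00. That SE and interval rest on a spread pooled over repeat families and not on the GSAT_MM values alone. A two-sided exact permutation test of the 6 values gave p = 0.1, which is the smallest that 3 against 3 allows. Relative to Hprt, a housekeeping gene used as reference in the study's PCR, the mean ratio was 0.360 ± 0.0103 (SD, n = 3) before and 0.355 ± 0.00691 after induction (exact permutation p = 0.7). Hprt itself was at 4093, 3881 and 4035 and then at 3807, 3675 and 3814 normalised counts (log2 fold change -0.09 ± 0.04, adjusted p = 0.179).

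The minor satellite, SYNREP_MM, was a low-count family and its interval was wide. It was measured at 58.7, 67.8 and 70.9 normalised counts before and at 53.4, 80.6 and 81.1 after induction, higher in 2 of 3 pairs, with overlapping groups. The log2 fold change was 0.11 ± 0.27, with a 95% interval of -0.44 to 0.65, adjusted p = 1.00 and exact permutation p = 0.6. At raw counts of 53 to 85 per library, a change smaller than this interval was not detectable at this depth. Of the 9 satellite families in the table, 6 could be tested and 2 had 0 counts in all 6 libraries.

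None of the other satellites passed the test. The dispersed satellites IMPB_01 (log2 fold change 0.05), MMSAT4 (0.17) and ZP3AR (-0.0047) overlapped between groups. SUBTEL_sa, a subtelomeric satellite, was at 64.3, 46.0 and 72.9 normalised counts before and at 88.2, 87.3 and 110.2 after induction, higher in 3 of 3 pairs and without overlap, but its adjusted p was 0.244 over all repeat families. L1Md_A, an active LINE-1 family, was at 35386, 29579.6 and 41727 and 33996, 43172 and 42937 normalised counts (log2 fold change 0.17 ± 0.09, adjusted p = 0.821).

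**Figure D1:**
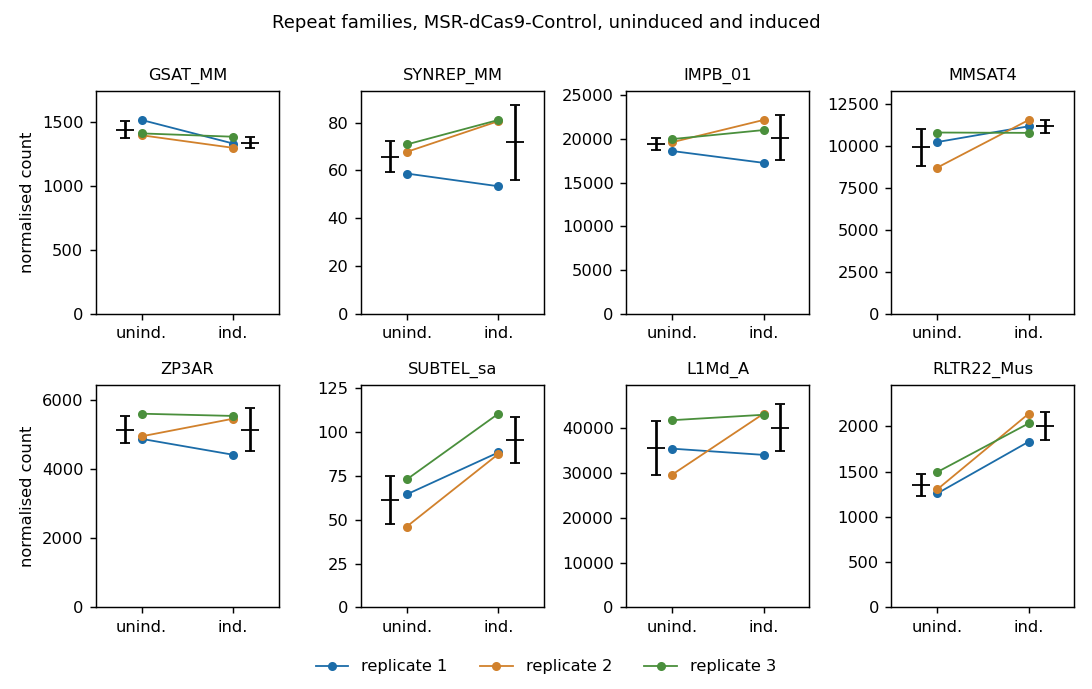
Normalised counts (vertical axis, from 0) of 6 satellite families, L1Md_A and RLTR22_Mus in uninduced (unind.) and induced (ind.) MSR-dCas9-Control cells, with 1 coloured line per replicate number and black bars for the mean ± SD of 3 libraries. GSAT_MM lay between 1297 and 1515 in all 6 libraries, while RLTR22_Mus was higher after induction in all 3 replicates.

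Over all repeat families, 1 of 1461 tested was called (adjusted p under 0.05 and a log2 fold change beyond 0.5), which is 0.0684% of those tested. An unadjusted p under 0.05 was seen in 88, 68 of them higher. Families without any change can also fall under that limit, and other fits gave 27 to 175 such families. The called family was RLTR22_Mus, a long terminal repeat of the ERVK class of endogenous retroviruses. It was at 1259, 1303 and 1494 normalised counts in the uninduced and at 1830.2, 2139 and 2033 in the induced libraries, so every induced library lay above every uninduced one (log2 fold change 0.56 ± 0.10 (SE), adjusted p = 8.59e-06). It was not called when all 36 libraries were fitted together or when only the 6 libraries were fitted without the replicate block. The next families by p were the simple repeat (TTGGGG)n (log2 fold change 0.86, adjusted p = 0.231) and 7SK, a small nuclear RNA that holds the elongation factor P-TEFb (0.30, 0.231). (TTGGGG)n was at 163, 129 and 158 before and 428, 182 and 201 after induction, so its fold rested mainly on induced replicate 1.

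Among the 1121 more abundant repeat families, with means of 100 normalised counts or more, 99.6% lay within 0.5 of 0 on the log2 scale. ERVK families had a fitted change above 0 in 221 of 275, with a median of 0.08, beside a median of 0.02 over all repeat families. LINE families were above 0 in 106 of 157, with a median of 0.02, near that of all repeat families. Simple repeats were above 0 in 164 of 273 and DNA transposons in 72 of 194. Repeat families took 20.2% ± 0.784 (SD, n = 3) of all counts before and 20.6% ± 1.96 after induction, a difference of 0.413 percentage points (exact permutation p = 0.8).

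The genes for the proteins that build this heterochromatin mostly did not pass the test. Of 34 tested genes for heterochromatin proteins and H3K9 or H4K20 methylation, 4 rose, 1 fell and 29 did not pass the test, with a median log2 fold change of 0.05. The HP1 genes Cbx5 (0.02), Cbx1 (-0.03) and Cbx3 (0.04) each overlapped between groups. The rises were in the high mobility group genes Hmgb2 (0.32), Hmga1 (0.32) and Hmgb1, and in Safb (0.21). The fall was in Morc3 (-0.24). Among 33 centromere and kinetochore genes, 5 rose, Cenpe (0.24) and Ndc80 (0.20) with the smallest p, and Cenpb, whose protein binds the minor satellite, fell from 5329 ± 205 to 4602 ± 35.6 normalised counts (log2 fold change -0.21 ± 0.05 (SE), adjusted p = 0.0119). Across all 22061 genes tested, 3.81% were higher and 5.93% lower at an adjusted p under 0.05. That background includes genes with low counts, while all members of both lists had means above 100 normalised counts. Of 4576 genes with a mean above 100 and between 4000 and 8000 bases of exons, 261 rose and 408 fell.

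Among genes, the induced cells differed from the uninduced cells by many small changes and by a few large ones, nearly all of them falls. The falls included genes of collagens and matrix, and the rises included cholesterol synthesis, ribosomal protein and ATF4 target genes. Of 22061 genes tested, 2149 had an adjusted p under 0.05, 841 higher and 1308 lower, with a median size of 0.28 on the log2 scale. Genes were called at an adjusted p under 0.05, a log2 fold change beyond 1 and a mean above 100 normalised counts, the limits of the study. These limits left 40 genes, 0.181% of those tested, of which 38 were lower and 2 higher. In 39 of the 40 the groups of 3 did not overlap, beside 18.6% of all genes tested, and all 38 falls were seen in 3 of 3 pairs. Of the 13080 genes with a mean above 100, 97.7% lay within 0.5 of 0 on the log2 scale.

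In the 18 libraries without the replicate block, 536 genes had an adjusted p under 0.05. Called were 29, 28 of them among the 40. In a fit of all 36 libraries, whose spread includes the MSR-dCas9-Activator line, 61 genes had an adjusted p under 0.05 and 15 were called, all 15 among the 40.

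**Figure D2:**
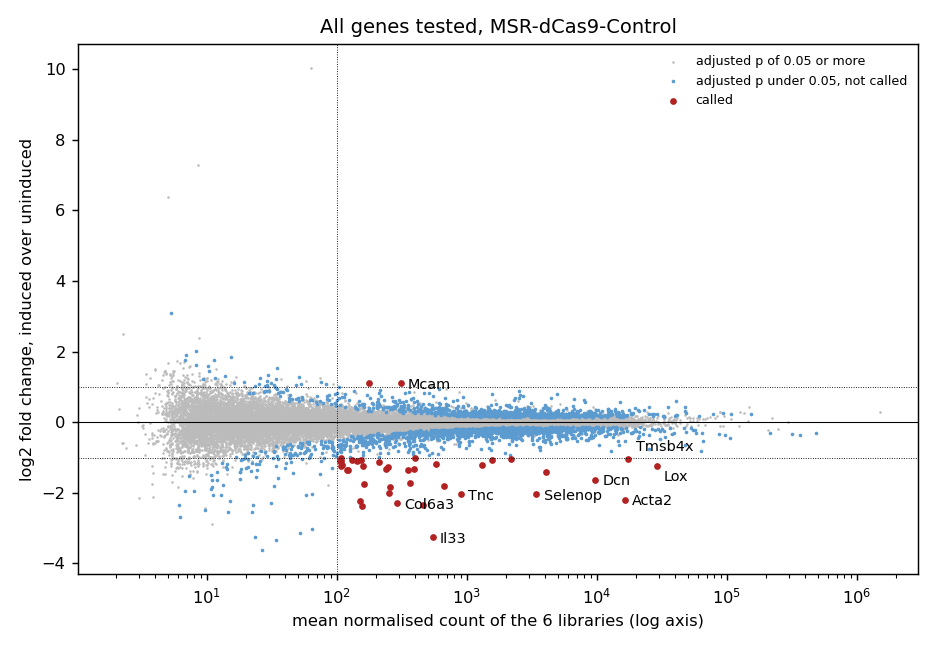
Log2 fold change of induced over uninduced MSR-dCas9-Control cells (vertical axis) against the mean normalised count of the 6 libraries (horizontal log axis) for 22061 genes, with called genes in red, other genes with an adjusted p under 0.05 in blue and the rest in grey. Of the 40 called genes, 38 lie below -1 and 2 above 1; the dotted lines mark the fold and mean limits.

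The smooth muscle contractile genes Acta2 and Tagln were among the 15 largest called falls. Acta2, which encodes smooth muscle alpha-actin (chr19:34241090-34255590, minus strand, GRCm38), was at 26837, 23309 and 30630.2 normalised counts in uninduced replicates 1 to 3 and at 6547, 5527 and 5494 in the induced ones. Every induced library was below every uninduced one, and the mean was 4.6 times lower (log2 fold change -2.20 ± 0.10 (SE), adjusted p = 6.86e-09). Tagln, which encodes the actin-binding protein transgelin, was at 380.4, 315 and 516 and then at 89.0, 114 and 96.4 (log2 fold change -1.99 ± 0.16 (SE), adjusted p = 2.02e-08). Tmsb4x, which encodes the actin monomer-binding thymosin beta 4 and was called with a smaller fold (named after its values were seen), went from 23552 ± 1790.1 to 11532 ± 842 (SD, n = 3) without overlap (log2 fold change -1.03 ± 0.06 (SE), adjusted p = 1.32e-10). In these bulk samples, fewer cells of a type and less RNA per cell cannot be told apart.

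Most of the other tested targets of SRF and YAP did not pass the test. Of 35 tested YAP and SRF targets, 9 fell, 2 rose and 24 did not pass, with a median log2 fold change of -0.07 beside 0.00 over all genes tested. The shares over all genes tested, low-count genes included, were 5.93% lower and 3.81% higher. The actin crosslinker Flna fell (-0.44 ± 0.05, adjusted p = 1.1e-06). Srf and Cnn2, picked after their values were seen, stood at opposite signs. Srf itself rose in 3 of 3 pairs with overlapping groups, from 2485 ± 411 to 3117 ± 383 normalised counts (log2 fold change 0.34 ± 0.07 (SE), adjusted p = 0.00172), and the calponin Cnn2 fell from 20113 ± 3163 to 16266 ± 984 (log2 fold change -0.30 ± 0.07 (SE), adjusted p = 0.00676). Both carry the CArG box, the recognition element of SRF, within the window from 250 bases before to 50 after their RefSeq start. That element, searched on both strands, was in 4 of the 27 list members with such a window, beside 1.81% of all 27025 genes with one and 1.65% of the genes tested here. The windows of Srf (chr17:46556176-46556284, minus strand) and Cnn2 (chr10:79988504-79988583, plus strand), from RefSeq on GRCm38.p6, are shown from 40 bases before the first match up to the gene's start, with the CArG boxes in capitals.
Srf: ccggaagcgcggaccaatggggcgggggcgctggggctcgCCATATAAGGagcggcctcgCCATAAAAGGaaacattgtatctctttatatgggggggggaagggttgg
Cnn2: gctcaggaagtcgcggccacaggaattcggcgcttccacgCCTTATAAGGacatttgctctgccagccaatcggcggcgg
A match is only a stretch of letters, and SRF binding was not measured.

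The counts of Tagln cannot be separated from those of Gm48529, a transcript annotated antisense within it. Gm48529 was at 383, 311 and 507 and then 111, 115 and 106 normalised counts, close to Tagln in every library. The strand setting of the counting is not given in the sources used here, so both are uncertain as separate genes. Selenop and Ccdc152 also overlap on opposite strands, at different levels. Gm47302, annotated as a miRNA, lies within Col3a1 on the same strand and can share its reads.

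A majority of the tested extracellular matrix genes fell, most of them modestly. Of 41 tested genes of collagens and matrix, 25 fell, none rose and 16 did not pass, with a median log2 fold change of -0.31 and values from -3.35 to 0.28. Over all 22061 genes tested, low-count genes included, 5.93% were lower and 3.81% higher. The median over the list was -0.30, -0.33 and -0.45 in the 3 replicate pairs taken singly, on the log2(normalised count + 1) scale. The called members were Lox, Col6a3, Dcn and Tnc, 4 in all. In the 6 libraries alone without the replicate block, 13 of the 41 fell, and in the fit of all 36 libraries, 6 did. The list overlaps that of fibroblast markers, and it was chosen with earlier results of these data known.

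Lox, lysyl oxidase, which crosslinks collagen and elastin, was at 35674, 35195 and 51824 normalised counts before and 16256, 16707 and 18109 after induction, 2.4 times lower without overlap (log2 fold change -1.25 ± 0.08 (SE), adjusted p = 6.86e-09). Col6a3, a chain of the microfibril-forming collagen VI, was at 419, 457 and 578 and then at 90.5, 94.9 and 115 (log2 fold change -2.30 ± 0.16 (SE), adjusted p = 7.02e-09). Its partner chain Col6a2 fell by less (log2 fold change -0.52), and Col6a1 did not pass the test (-0.27, adjusted p = 0.089). Tnc, the adhesion-modulating glycoprotein tenascin C, was at 1568, 1334 and 1423 before and 326, 369 and 358 after induction (log2 fold change -2.04 ± 0.31 (SE), adjusted p = 0.00235).

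Decorin, Dcn, a small proteoglycan that binds collagen fibrils, was at 17910.4, 15502 and 10458 normalised counts before and 5838, 5225 and 3228 after induction (log2 fold change -1.63 ± 0.11 (SE), adjusted p = 6.19e-07). Replicate 3 was the lowest in both groups, and each pair fell. The proteoglycan Lum fell further, from 61.1 ± 11.2 to 6.76 ± 3.55, at a mean below the limit for a call. The fibrillar chain Col3a1 fell from 81138 ± 7953 to 46179.7 ± 7677 (log2 fold change -0.82 ± 0.07 (SE), adjusted p = 1.81e-07), and the basement membrane chain Col4a1 from 31683 ± 3009.6 to 18683 ± 1157 (log2 fold change -0.76 ± 0.06 (SE), adjusted p = 9.68e-09). Over all 34 collagen chain genes tested, the median was -0.21. Of them, 13 fell and 1, Col17a1, rose, beside 5.93% lower and 3.81% higher over all genes tested. The abundant chain Col1a1 fell by less than Col3a1 and Col4a1 (log2 fold change -0.30). Col6a1, Col6a2, Col1a1 and Col17a1 were named after their values were seen.

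Most of the tested matrix proteases also fell. Of 19 tested metalloproteinase genes (Mmp, Adam and Adamts families), 11 fell, none rose and 8 did not pass, with a median of -0.40. Over all genes tested, low-count genes included, 5.93% were lower and 3.81% higher. Adamts2, which removes the amino-terminal propeptide of procollagens, fell from 2930.3 ± 265 to 1889 ± 194 normalised counts (log2 fold change -0.63 ± 0.05 (SE), adjusted p = 6.86e-09). Mmp2, a gelatinase, and Adam12 fell by less, with log2 fold changes of -0.42 and -0.40. The inhibitor Timp1, named after its values were seen, was also lower (-0.62).

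**Figure D3:**
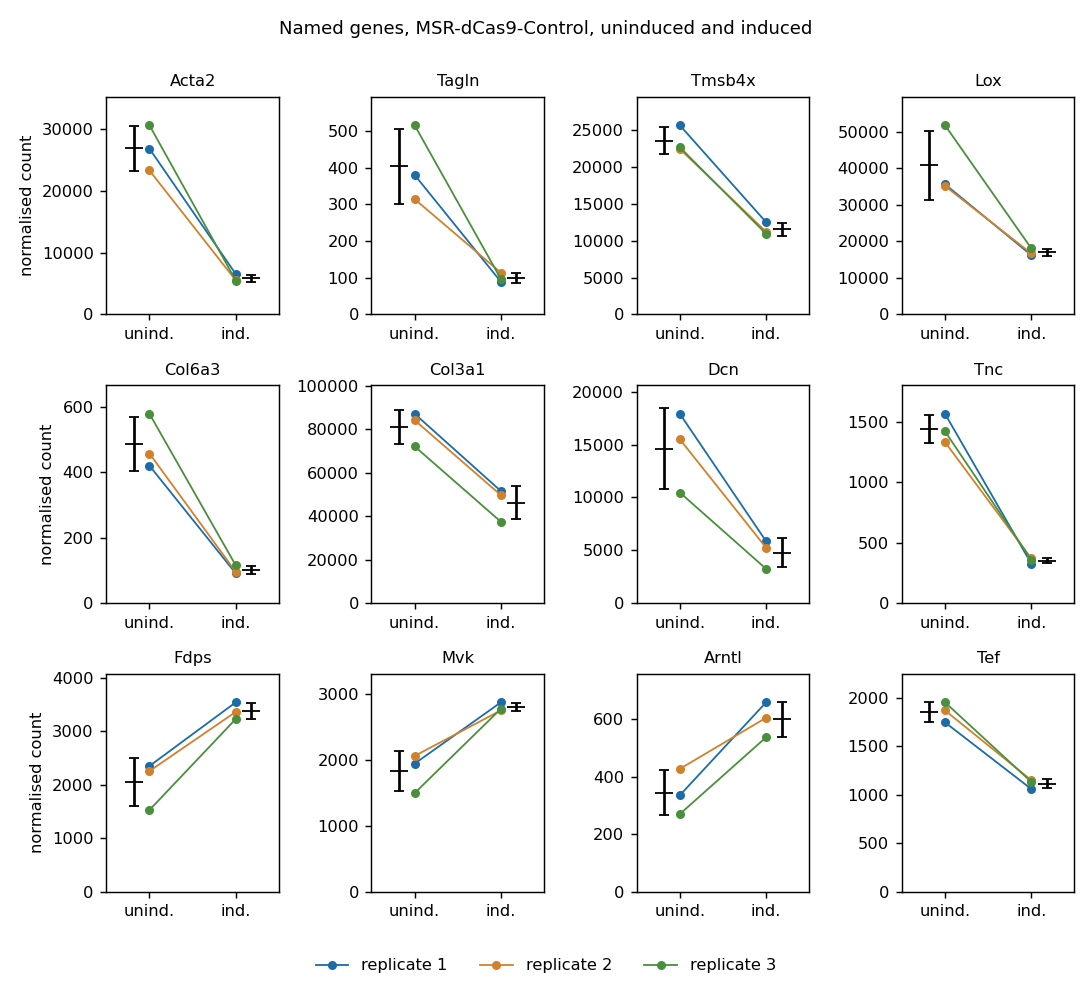
Normalised counts (vertical axes, from 0) of 12 genes in uninduced (unind.) and induced (ind.) MSR-dCas9-Control cells, with 1 coloured line per replicate number and black bars for the mean ± SD of 3 libraries. The 8 contractile and matrix genes and Tef are lower in every induced library, and Fdps, Mvk and Arntl are higher in all 3 replicates.

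All 20 fibroblast markers had counts, and those that changed were lower. Of 18 tested fibroblast markers, 11 fell and none rose, and the 11 are matrix genes and Pdgfrb. The shares over all genes tested, low-count genes included, were 5.93% lower and 3.81% higher. The intermediate filament gene Vim (-0.11) and the mesenchymal transcription factor genes Prrx1 (0.02), Twist1 (0.00) and Twist2 (0.24) did not pass the test (picked after their values were seen). The summed normalised count of the list was 1433350 to 1594770 in the uninduced and 1092690 to 1271940 in the induced libraries.

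Markers of 8 other cell types (liver, brain, testis, skeletal muscle, erythroid cells, macrophages, epidermis and endothelium) were low or at 0. Only 33 of 114 of these genes passed the filter on low counts, and 33 had 0 counts in all 6 libraries, among them Alb, Snap25, the 4 adult globin genes listed, Adgre1, Krt5 and Myod1. The summed level of each list was between 262 and 3865 normalised counts in the uninduced and between 222 and 3305 in the induced libraries. Of the 33 tested, none rose and 4 fell, which were Ahsg (-3.13), Ddx4 (-1.79), Krt10 (-0.38) and Mbp (-0.26). Over all genes tested, 3.81% were higher and 5.93% lower, so these few falls do not set the markers apart.

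Il33, a nuclear cytokine of stromal cells, had the largest fold change among the called genes. It was at 1299.7, 1269 and 391 normalised counts in uninduced replicates 1 to 3 and at 93.6, 152 and 61.2 in the induced ones (log2 fold change -3.25 ± 0.30 (SE), adjusted p = 4.29e-05). Replicate 3 began at less than the others, and each pair fell. Selenop, the selenium carrier selenoprotein P, went from 7143, 5895 and 3544 to 1469, 1412 and 1082 (log2 fold change -2.04 ± 0.18 (SE), adjusted p = 5.41e-05).

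Other called falls had low to moderate means. They included the cornified envelope protein gene Sprr1a (-2.36 ± 0.33), the aldehyde dehydrogenase gene Aldh3a1 (-2.24 ± 0.19), Fam180a (-1.74 ± 0.16) and Nrep (-1.73 ± 0.23). Abca1, the pump that moves cellular cholesterol to lipoproteins, was at 1128, 1212 and 746 before and 343, 396 and 167 after induction (log2 fold change -1.82 ± 0.32 (SE), adjusted p = 0.00581). Of the 38 called falls, 20 had a mean of at most 300 normalised counts. The 5 largest falls with an adjusted p under 0.05 that stayed outside the limits, at means above 100, were Itih2 (-0.99), Macc1 (-0.98), Magef1 (-0.93), Igfbp3 (-0.93) and Gm47302 (-0.93).

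The chemokine genes Ccl17 (log2 fold change -1.33 ± 0.12 (SE), adjusted p = 7.25e-08) and Ccl9 (log2 fold change -1.28 ± 0.16 (SE), adjusted p = 1.81e-05), which are in none of the lists and were named after their values were seen, were called lower, each without overlap. Of 27 tested NF-kappaB cytokines and chemokines, 3 fell, among them Cxcl12 (-0.34) and Ptgs2 (-0.74), and 1, Csf3, rose (0.57). Of 38 tested interferon-stimulated genes, 3 fell (Irgm1 -0.43, Ifi27 -0.68 and Rtp4 -0.62) and 2 rose, with a median of -0.08. Of 38 tested immediate early genes, 7 fell and 3 rose, beside 5.93% lower and 3.81% higher over all genes tested, low-count genes included. Rhob (-0.41) and Klf2 (-0.63) were lower and the AP-1 subunit gene Fosl1 was higher, at 1045, 1155 and 1641 before and 1665, 1513 and 2154 after induction (log2 fold change 0.49 ± 0.07 (SE), adjusted p = 5.29e-05).

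Only 2 genes were called higher. Mcam, which encodes the adhesion molecule CD146, was at 204, 205 and 182 normalised counts before and 406, 441 and 418 after induction, 2.14 times higher and without overlap (log2 fold change 1.10 ± 0.17 (SE), adjusted p = 0.000458). Gm15387 is a processed pseudogene at 119.5, 114 and 100.4 and 333, 199 and 185, with induced replicate 1 the highest (log2 fold change 1.11 ± 0.16 (SE), adjusted p = 7.33e-05). Of the 5 next largest rises, Gm3571, Gm10335, Rpsa-ps2 and Rpl5-ps1 (log2 fold changes 1.00, 0.95, 0.93 and 0.89) are pseudogene or predicted gene models, which can share reads with a parent gene and are uncertain. The fifth, mt-Atp8, overlaps mt-Atp6 on the mitochondrial genome.

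Cholesterol synthesis genes were the list with the highest median change. Of 25 tested, 16 rose, 1 fell (Ebp, -0.24) and 8 did not pass, with a median log2 fold change of 0.36. Over all genes tested, low-count genes included, 3.81% were higher and 5.93% lower. No member reached the fold limit for a call. The list medians in replicate pairs 1, 2 and 3 were 0.21, 0.26 and 0.79, so pair 3 moved by the most. In the 6 libraries alone without the replicate block, 1 of the 25 passed, and in the fit of all 36 libraries, 3 did.

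The rises ran along the pathway. Mvk, mevalonate kinase, was at 1940.4, 2058 and 1494 normalised counts before and at 2871, 2749 and 2774 after induction (log2 fold change 0.62 ± 0.08 (SE), adjusted p = 2.14e-05). Pmvk, the next kinase of the pathway, was at 418, 391 and 294 and then 777, 664 and 509.7 (log2 fold change 0.82 ± 0.09 (SE), adjusted p = 2.84e-06). Fdps, farnesyl diphosphate synthase, was at 2352, 2257 and 1527 and then 3546, 3367 and 3233 (log2 fold change 0.74 ± 0.08 (SE), adjusted p = 6.14e-06). For all 3 genes each induced library lay above each uninduced one. Fdps overlaps Gm43738, a protein-coding gene model on the same strand, and can share its reads. Gm43738 had a mean of 2530 normalised counts and a log2 fold change of 0.70.

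Hmgcs1, the HMG-CoA synthase gene, named after its values were seen, also rose. It went from 6489 ± 1439 to 9639 ± 634 (log2 fold change 0.58 ± 0.12 (SE), adjusted p = 0.0089). The regulator gene Srebf2 (0.16, adjusted p = 0.0983) did not pass. The sterol regulatory element TCACNCCAC, searched on both strands of the RefSeq windows, was found in 1 of the 17 list members with a window, beside 1.44% of all genes with one and 1.39% of the genes tested here. That member is Hmgcs1 (chr13:119690174-119690262, plus strand, GRCm38.p6). It is shown from 40 bases before the element to 40 bases after it, with the element in capitals.
Hmgcs1: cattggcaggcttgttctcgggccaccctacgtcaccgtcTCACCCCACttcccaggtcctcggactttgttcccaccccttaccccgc
No other member holds these letters in this window, which says nothing of elements elsewhere.

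Clock genes moved in both directions. Of 20 tested, 9 fell, 2 rose and 9 did not pass, with a median of -0.18. Over all genes tested, low-count genes included, 5.93% were lower and 3.81% higher. Arntl, the gene for BMAL1, was at 335, 427 and 269.8 normalised counts before and at 659, 605 and 537 after induction (log2 fold change 0.83 ± 0.11 (SE), adjusted p = 2.82e-05). Tef, a PAR-domain output factor, was at 1749, 1872 and 1956 and then at 1059.7, 1151 and 1133 (log2 fold change -0.74 ± 0.06 (SE), adjusted p = 4.52e-08), and Nr1d2, a repressor of Arntl, fell from 2561 ± 366 to 1677 ± 38.5 (log2 fold change -0.61 ± 0.07 (SE), adjusted p = 2.02e-06). For each of these genes the groups did not overlap.

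The other rise was Nfil3 (0.43), and the other falls were Per2 (-0.46), Per3, Nr1d1, Dbp (-0.87), Bhlhe40, Bhlhe41 (-0.64) and Csnk1d. Clock (0.06) and Cry1 (0.10) did not pass the test. The genes in this paragraph were named after their values were seen. The E-box CACGTG, the element of BMAL1 and CLOCK, was in the windows of 5 of 16 list members with a window, beside 8.09% of all genes with one and 11.2% of the genes tested here. Of these 5, Tef and Bhlhe41 fell, and Cry1, Ciart and Per1 did not pass the test. The same E-box was in 4 of the 17 cholesterol synthesis genes with a window and in 2 of the 27 YAP and SRF targets with one. Bhlhe41 (chr6:145865559-145865613, minus strand, GRCm38.p6) is a member that fell and whose E-box lies upstream of the annotated gene. It is shown from 40 bases before the E-box up to the gene's start, with the E-box in capitals.
Bhlhe41: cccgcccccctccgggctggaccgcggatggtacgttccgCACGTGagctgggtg
The hour of day of the harvests is not given in the sources used here.

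Many genes for ribosomal proteins rose by small amounts. Of 79 tested cytosolic ribosomal protein genes, 35 rose, none fell and 44 did not pass. Over all genes tested, low-count genes included, 3.81% were higher and 5.93% lower. The list median was 0.16. The median was 0.21, 0.08 and 0.22 in the 3 pairs. Rpl23a (0.32 ± 0.06), Rpl4 (0.33 ± 0.06) and Rpl29 (0.37 ± 0.06) had the smallest p. Without the replicate block, 9 passed, and in the fit of all 36 libraries, none did.

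Of 2242 processed pseudogenes tested, 1491 had a fitted change above 0, with a median of 0.15. At an adjusted p under 0.05, 82 rose and 10 fell, a share of rises no higher than the 3.81% over all genes tested. The 138 pseudogenes named for ribosomal proteins had a median of 0.29. Since such copies share reads with their parent genes, their counts are uncertain. Short genes were also slightly higher in median: it was 0.04 over 512 genes with at most 500 bases of exons and 0.01 over 2131 genes with more than 8000, both at means above 100. Whether transcript length plays a part in the ribosomal protein values was not tested. Ribosome biogenesis genes held 2 rises (Gar1 0.31 and Fbl 0.21) and 2 falls among 49, Taf1c (-0.29) among the latter.

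Some targets of ATF4 and the integrated stress response also rose. Of 44 tested, 17 rose, none fell and 27 did not pass, with a median of 0.20. The shares over all genes tested, low-count genes included, were 3.81% higher and 5.93% lower. Psat1, a serine synthesis enzyme, was at 17309, 16791 and 16768 normalised counts before and at 24146, 21275 and 21576 after induction (log2 fold change 0.40 ± 0.07 (SE), adjusted p = 0.000485). Mthfd2, of mitochondrial folate metabolism, and Eif4ebp1, a translation repressor, rose by 0.27 and 0.30. Without the replicate block, 4 of the 44 passed, and in the fit of all 36 libraries, none did.

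Of the other stress lists, no member met the limits for a call. The counts here are of genes with an adjusted p under 0.05, beside 3.81% higher and 5.93% lower over all genes tested. That background includes low-count genes, and most members of these lists had means above 100. Of 21 tested endoplasmic reticulum stress genes, 3 rose (Syvn1 0.21, Xbp1 0.20 and Hspa5 0.17). Of 18 tested heat shock genes, 4 rose, among them Hspb8 (0.32), Hsph1 (0.28) and Hsf1 (0.15). Of 25 tested NRF2 and oxidative stress genes, 8 rose and 1 fell, with Gstm1 (0.41), Gclm (0.28) and Me1 (0.22) at the smallest p. Of 30 tested p53 targets, Sesn2 rose (0.32), and Trp53inp1 (-0.70) and Aen (-0.19) fell. Of 20 tested hypoxia targets, 3 rose, among them Bnip3 (0.39) and Ndrg1 (0.28), and Loxl2 fell (-0.40).

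Doxycycline is known to inhibit mitochondrial translation, so the mitochondrial lists are given beside the rest. Over all genes tested, low-count genes included, 3.81% were higher and 5.93% lower. Of 13 mitochondrially encoded mRNAs, 3 rose and 1 fell, with a median of 0.21. mt-Atp6 was at 23672, 21262 and 19354 before and 32275, 28317 and 26718 after induction (log2 fold change 0.44 ± 0.08 (SE), adjusted p = 0.00226), and the neighbouring mt-Co3 fell (-0.26 ± 0.05, adjusted p = 0.00394). The 13 mRNAs together took 1.45% ± 0.202 (SD, n = 3) of all counts before and 1.66% ± 0.381 after induction (exact permutation p = 0.6).

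Of 77 tested mitochondrial ribosomal protein genes, 6 rose (Mrpl42 0.29, Mrpl4 0.26 and Mrpl54 0.25 at the smallest p) and 4 fell. Of 77 tested genes for the respiratory chain, 5 rose and 6 fell, among them Uqcrfs1 (-0.26), Atp5e (-0.35) and Ndufa7 (-0.22). Both list medians were 0.02, and over all genes tested 3.81% were higher and 5.93% lower. Of 17 mitochondrial chaperones and proteases, 1, Trap1, rose (0.19). Glycolysis genes rose in 5 of 21, with Pfkl (0.27), Pfkp (0.23) and Slc2a1 (0.18) at the smallest p.

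Some genes of proliferation rose and some of growth arrest fell, beside 3.81% higher and 5.93% lower over all genes tested. Of 64 tested genes of G2 and mitosis, 13 rose and 2 fell, with a median of 0.11. Kif20b (0.26) and Dlgap5 (0.22) rose, and Cdkn3 fell (-0.31). Of 53 tested DNA replication genes, 11 rose, with Pold3 (0.34), Dbf4 (0.25) and Pola1 (0.18) at the smallest p, and 1 fell. Without the replicate block, 1 of the 64 mitosis genes passed.

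Replication-dependent histone genes rose in 4 of 64, beside 3.81% over all genes tested, low-count genes included. The list medians in pairs 1, 2 and 3 were 0.52, -0.09 and 0.16, so pair 2 went the other way. The rises included Hist1h4d (0.59), Hist1h3b (0.34) and Hist1h1e (0.37). Of 25 tested genes of quiescence and growth arrest, 7 fell and none rose, with a median of -0.06. Over all genes tested, 5.93% were lower. Dcn, Lum and Pdgfrb, among the 7, were also counted with the fibroblast markers above. Gas6 was another, and it fell from 5006 ± 222 to 3632 ± 376 (log2 fold change -0.47 ± 0.05 (SE), adjusted p = 2.26e-06). Of 21 tested imprinted genes, 4 fell and none rose, Dcn, Igf2r (-0.37), Sgce (-0.34) and Igf2 (-0.42).

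**Figure D4:**
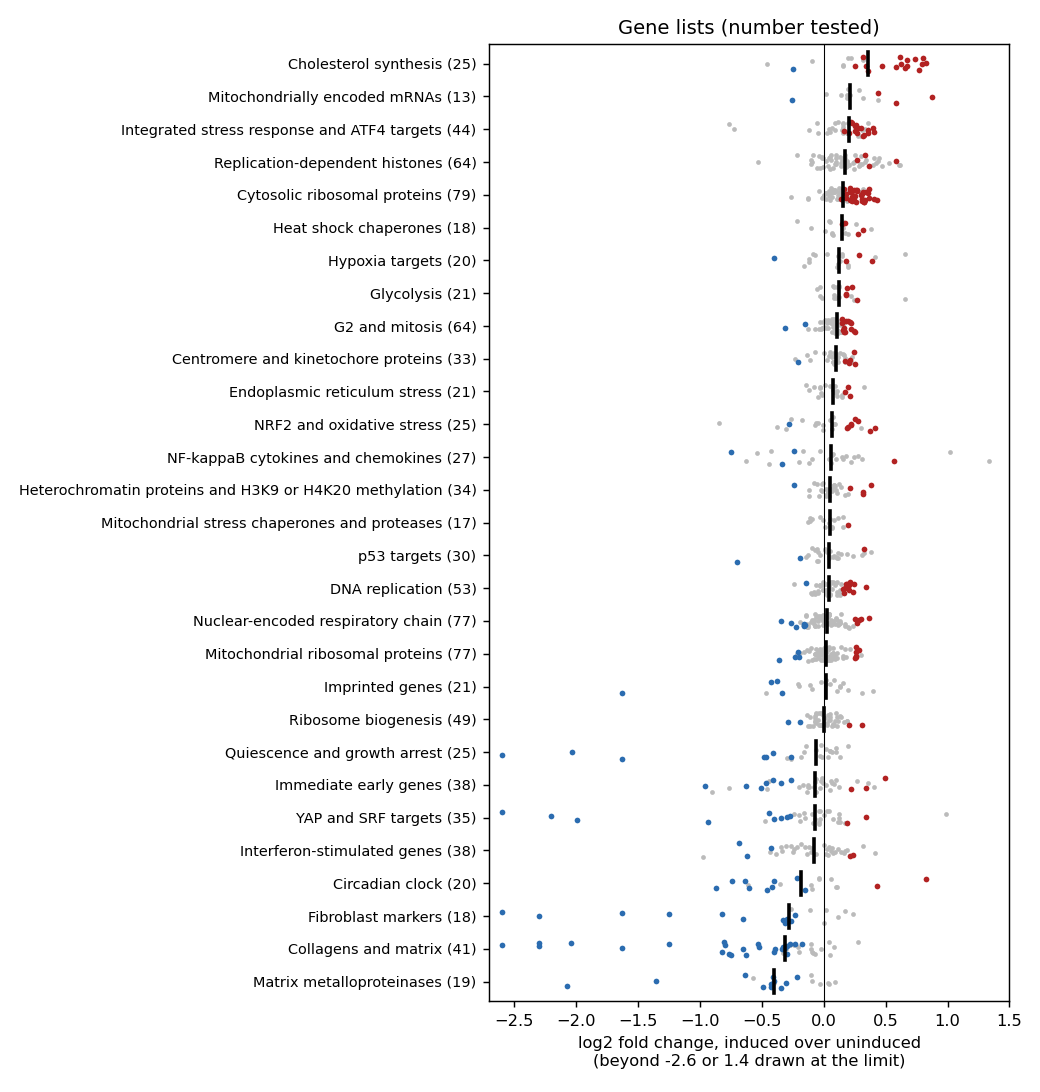
Log2 fold change of induced over uninduced MSR-dCas9-Control cells (horizontal axis) for the members of each gene list with at least 13 tested genes (rows, with the number tested), with rises in red and falls in blue at an adjusted p under 0.05, other members in grey and the list median as a black bar. Matrix metalloproteinases, collagens and matrix and fibroblast markers have the lowest medians (-0.40, -0.31 and -0.28), and cholesterol synthesis the highest (0.36).

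The levels in the same line after doxycycline was removed are given up to 24 h later. These libraries were read as levels and not tested again, and they also differ in time in culture. Acta2, at 26926 ± 3661 normalised counts (SD, n = 3) before and 5856 ± 599 at the end of induction, was at 6212 ± 249 after 3 h and at 4179 ± 488 after 24 h without doxycycline. Lox was at 40898 ± 9465 before, 17024 ± 966 at the end and 13997 ± 662 after 24 h of removal. In all 4 later groups every library of both genes lay below every uninduced library.

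Dcn and Il33 had higher means 24 h after removal than at the end of induction. Dcn was at 4764 ± 1365 at the end of induction, at 2527 ± 841 after 12 h and at 7491 ± 2612 after 24 h without doxycycline, still below the uninduced 14623 ± 3803. Il33 was at 40.5 ± 22.6 after 12 h and 223 ± 76.9 after 24 h, against 986 ± 516 before induction. Of the 38 genes called lower, 32, 25, 37 and 26 had all 3 libraries below all 3 uninduced libraries after 3 h, 6 h, 12 h and 24 h, so the count did not move in 1 direction.

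Fdps and Nr1d2 had means near their uninduced levels in the 12 h group and farther from them at 24 h. Fdps was at 3382 ± 157 at the end of induction, 2013 ± 169 after 12 h and 2817 ± 68.2 after 24 h, beside 2045 ± 451 before. Nr1d2 was at 1466 ± 43.1 after 6 h, 2575 ± 82.4 after 12 h and 1814 ± 26.9 after 24 h, beside 2561 ± 366 before induction. GSAT_MM was at 1013 ± 78.1 after 3 h and 1771 ± 221 after 24 h of removal, a wider span than the difference between uninduced and induced cells.

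**Figure D5:**
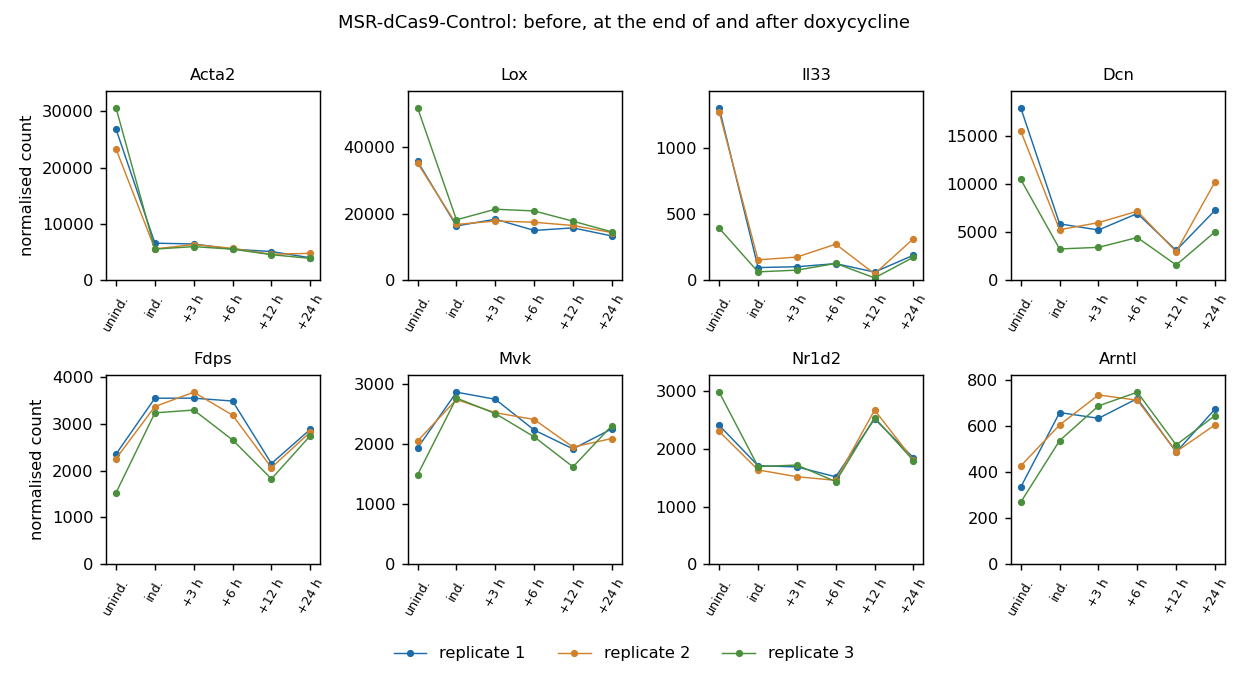
Normalised counts (vertical axes, from 0) of 8 genes in the MSR-dCas9-Control line before induction (unind.), at the end of 24 h of doxycycline (ind.) and 3, 6, 12 and 24 h after its removal, with 1 coloured line per replicate number. Acta2 and Lox stay low throughout, while Fdps, Mvk, Nr1d2 and Arntl at 12 h lie nearer to their uninduced levels than at 6 h.

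The same contrast in the MSR-dCas9-Activator line rests on other libraries and other cells. There, doxycycline was given for 6 h and not 24 h, the dCas9 carries VPR, and 28% of the 28536 genes tested in all 36 libraries were lower at an adjusted p under 0.05. Of the 38 genes called lower in the Control line, 35 had a fitted change below 0 in the Activator line and 27 of them passed the test there. Their median log2 fold change was -1.33 in the Control line and -1.04 in the Activator line, beside medians in the Activator line of -0.12 over the genes tested in the Control line and 0.08 over the 28536.

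Acta2, on the scale of all 36 libraries, was at 35323, 11226 and 27592 normalised counts in uninduced and 11174, 7226 and 10180.0 in induced Activator replicates 1 to 3 (log2 fold change -1.35 ± 0.28). The Activator replicates started far apart, with replicate 2 at less than the others. Col6a3 was at 876, 896 and 1021 and then 129, 311 and 214 (log2 fold change -2.15 ± 0.22), and Il33 changed by -2.54 ± 0.86.

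Whether the change differed between the lines was tested by an interaction term. Over all genes, 32.2% of 28536 differed at an adjusted p under 0.05, and 7 of the 40 called genes did. The interaction adjusted p was 0.0969 for Acta2, 0.0716 for Lox, 0.787 for Col6a3 and 0.638 for Il33, which does not show that these changes were alike. The 40 genes were chosen for their change in the Control line, which enters this difference.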

How the data were processed

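Total RNA of MSR-dCas9-Control and MSR-dCas9-Activator MEFs (3 independent replicates per group) was sequenced by the authors as paired, ribosome-depleted, stranded libraries. Reads were trimmed with cutadapt, aligned with STAR to GRCm38 and counted over genes and repeat families with TEtranscripts. The deposited table holds the authors' raw counts for 54842 genes and 1561 repeat families. The multi-mapper mode, strand setting and annotation release are not given in the sources used here. One entry that names no feature (at most 0.00452% of counts) was left out. Gene names and positions come from GENCODE on GRCm38 (54495 genes matched).

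Counts were tested with edgeR 4.0.16 (R 4.3.3; TMM factors from genes, its default low-count filter, robust quasi-likelihood fit, replicate number as block) over the 18 Control libraries. Repeat families used the library sizes and factors of the genes. The replicate numbers pair the samples, since every same-number correlation was over 0.1. Genes were called at an adjusted p under 0.05, a log2 fold change beyond 1 and a mean normalised count above 100, and repeat families at an adjusted p under 0.05 and beyond 0.5. The interaction used all 36 libraries. Exact permutation tests were two-sided. DESeq2 1.42.0 served as an alternative. Scripts were tested on simulated data. Intervals cover the spread between these libraries, which the fit pools in part or in full across genes or across repeat families.

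Named were the 15 largest called falls and all called rises, the 5 largest falls and rises past the adjusted p but not called at means above 100, up to 3 members per gene list by smallest p, the satellites, L1Md_A, the 3 repeat families of smallest p, Hprt, Cbx1, Cbx3, Cbx5 and Hmga1. Some genes under this rule are not reported here. Other genes were picked after their values were seen. The comparison, gene lists and tests were chosen with earlier results of these data known. Alternatives were other sets of libraries, the block, normalisation, the filter, limits and leaving out replicates.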

Additional observations from a re-analysis of the deposited data

Results flagged for a closer look

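Between the Control and Activator lines, 7 called genes differed in their change on induction, by the interaction term of the edgeR fit of all 36 libraries. The difference (Control minus Activator log2 fold change) was -2.45 ± 0.81 (SE) for Clstn3 (adjusted p = 0.0217), -1.69 ± 0.30 for Ccl9 (0.000129), -1.62 ± 0.37 for Jam2 (0.00159) and -1.23 ± 0.22 for Fbln5 (0.000157). It was -1.38 ± 0.41 for Sprr1a (0.0109), -1.27 ± 0.43 for Tagln (0.0255) and -1.22 ± 0.42 for Gm48529 (0.0275), the last of which shares its locus with Tagln. The number of such genes among the called was between 2 and 11 when 1 replicate number was left out.

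Fbln5, which encodes the elastic fibre protein fibulin 5, was at 605, 587 and 486 normalised counts, on the scale of all 36 libraries, in uninduced and 225, 265 and 185 in induced Control cells. In the Activator line it was at 1039, 883 and 1072 and 942, 798 and 1089.7. Clstn3, on the same scale, was at 186, 208 and 131 in uninduced Control libraries and at 2.61, 2.91 and 4.31 in uninduced Activator libraries, so the lines differed in its level before any doxycycline.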

How the results depend on the processing

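The 40 called genes and the 2149 with an adjusted p under 0.05 depend on pairing by replicate number and on which libraries set the spread. Without the replicate block, the 6 libraries alone gave 23 called and 159 with an adjusted p under 0.05, and the 18 libraries gave 29 and 536. With all 36 libraries and the block, the counts were 15 and 61, and 0 repeat families were called (30 with an unadjusted p under 0.05 in that fit). The cause was not tested. At a fold limit of 0.5, 265 genes were called, and without the mean limit, 135.

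Leaving out 1 library or 1 replicate number gave 31 to 51 called genes, 807 to 1780 with an adjusted p under 0.05 and 1 to 4 called repeat families. The count of 2149 moved by over 1.5 times without uninduced replicates 1 or 3 (1289 and 1279), without induced replicate 1 (1201) and without replicate numbers 1, 2 or 3 (1154, 807 and 969). Repeat families called were 3 in the 6 libraries with the block and 2 by library size without TMM. The interaction count of 9177 genes ranged from 1674 (without replicate 3; 3573 without replicate 1) to 11354, and was 6902 without the replicate block. RLTR22_Mus lost its call without replicate number 2, where its log2 fold change was 0.49. The difference in repeat share was -0.452 to 1.47 without single libraries.

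GSAT_MM kept its sign, at -0.19 to -0.05 without single libraries. SYNREP_MM did not, at -0.084 to 0.44, nor did ZP3AR (-0.078 to 0.075), IMPB_01 (-0.015 to 0.14), L1Md_A (-0.0059 to 0.28) and Cbx3 (-0.0036 to 0.091), none of which was called. Of 2057 values of 121 named genes and repeat families under the alternatives, 1650 kept direction and side of the threshold, 392 lost the adjusted p of 0.05, 7 gained it and 8 changed sign. No named gene that was called changed sign. Raw counts of 53 to 85 per library limit SYNREP_MM.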
